A study of Mus musculus with 6 samples.

Results

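The aldo-keto reductases of family 1 were followed here in mouse liver after treatment with trichloroethylene (TCE), an industrial solvent. The family was taken as 10 genes, Akr1a1, Akr1b3, Akr1b7, Akr1b8, Akr1c6, Akr1c12, Akr1c13, Akr1c14, Akr1c20 and Akr1d1, and every non-control probe that the array annotation assigns to one of them was used. This gave 12 probes of 55681 on the array, with 2 probes each for Akr1b3 and Akr1c20. The liver RNA came from 7-week-old male B6C3F1 mice, a hybrid strain. The 3 control mice received corn oil and the 3 TCE mice received TCE dissolved in corn oil at 1000 mg/kg b.w. per day, in both groups by mouth for 5 days, so that the vehicle was common to all animals. Each mouse was measured once, on a one-colour Agilent array of its own. Values are background-corrected intensities on the log2 scale after quantile normalization across the 6 arrays, called log2 signal below, and a difference of 1 is a 2-fold change.

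Aldo-keto reductases are soluble enzymes that use NADPH to reduce aldehydes and ketones to alcohols. Those of family 1 handle sugars, aldehydes from lipid breakdown, steroids and foreign chemicals. In liver they serve bile acid synthesis, the inactivation of steroid hormones and the clearance of reactive carbonyls. The Akr1c genes lie in a cluster on mouse chromosome 13 and the Akr1b genes near each other on chromosome 6, and many of them are close copies in sequence.

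All 12 probes were detected, meaning that each array of 1 group or of both read them well above background, as did 22719 probes in all. Between 23530 and 24950 probes were well above background per array and 0 spots were saturated. Pearson's r across the detected probes, which are not independent replicates, was 0.987 to 0.990 within the control group, 0.978 to 0.987 within the TCE group and 0.971 to 0.982 across them. The 7 hepatocyte markers examined, such as Alb and Apoa1, were detected. In limma or by the methods' t-test, which the study names, 0 passed an adjusted p of 0.05. In limma 2 had an unadjusted p under 0.05, as did 4072 of the 22719 detected probes. Control mouse 1 was on a slide by itself and the other 5 mice shared the second slide. In whole liver, fewer cells of a type and less RNA per cell cannot be told apart.

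The probes are 60 bases long. Because close copies can share a probe's target, stretches of 30 bases are shown for the probes on which the values below turn. Across the 66 pairs of member probes, the longest identical run was that of Akr1c6 and the brighter Akr1c20 probe, of 11 bases, set in capitals in the first 2 lines, and the longest in any other pair was 8 bases.
Akr1c6: TGAATACTAACtggaggtccattttgtgcc
Akr1c20, brighter probe: atttttggaTGAATACTAACatggaggtcc
Akr1c20, dimmer probe: tgcccgaaatacattgttgatagtcctata
Akr1b7: gagatccgtgcatgatagattccttcgtct
The best local alignment of the Akr1c6 and brighter Akr1c20 probes held 26 identical bases over 31. The Akr1b7 probe shared at most 7 bases in a row with any other member probe. Probes were compared with each other only, so their match to the transcripts of other copies was not measured.

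Akr1b7 was the only member past the threshold. It encodes an aldose-reductase-like protein, best known from the vas deferens and the adrenal gland, that reduces aldehydes such as isocaproaldehyde and lipid peroxidation products. Its probe lies on chromosome 6 at 34372905 to 34372964 (mm9). The log2 signal was 4.70, 4.59 and 4.41 in the control mice and 6.44, 6.18 and 7.03 in the TCE mice. Every TCE mouse was above every control mouse, and the signal was well above background in 3 of 3 TCE mice and in 0 of 3 control mice. Controls averaged 4.57 ± 0.15 (SD, n = 3), and the treated animals 6.55 ± 0.44 (SD, n = 3). Since no control array read the probe well above background, the change is given as a bound, at least 3.36-fold higher in TCE mice. It was computed against the lowest well-measured signal of each control array. Where the probe's own signal was higher, as in control mouse 2, that signal was used instead. The probe was counted as detected through the TCE mice alone, the group in which it is high. On the measured signals, the control ones being no more than a limit, limma gave a difference of 1.98 (SE 0.23, 95% interval 1.42 to 2.54), with an adjusted p of 0.0157 over the detected probes and of 0.0919 over all probes with no filter.

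**Figure D1:**
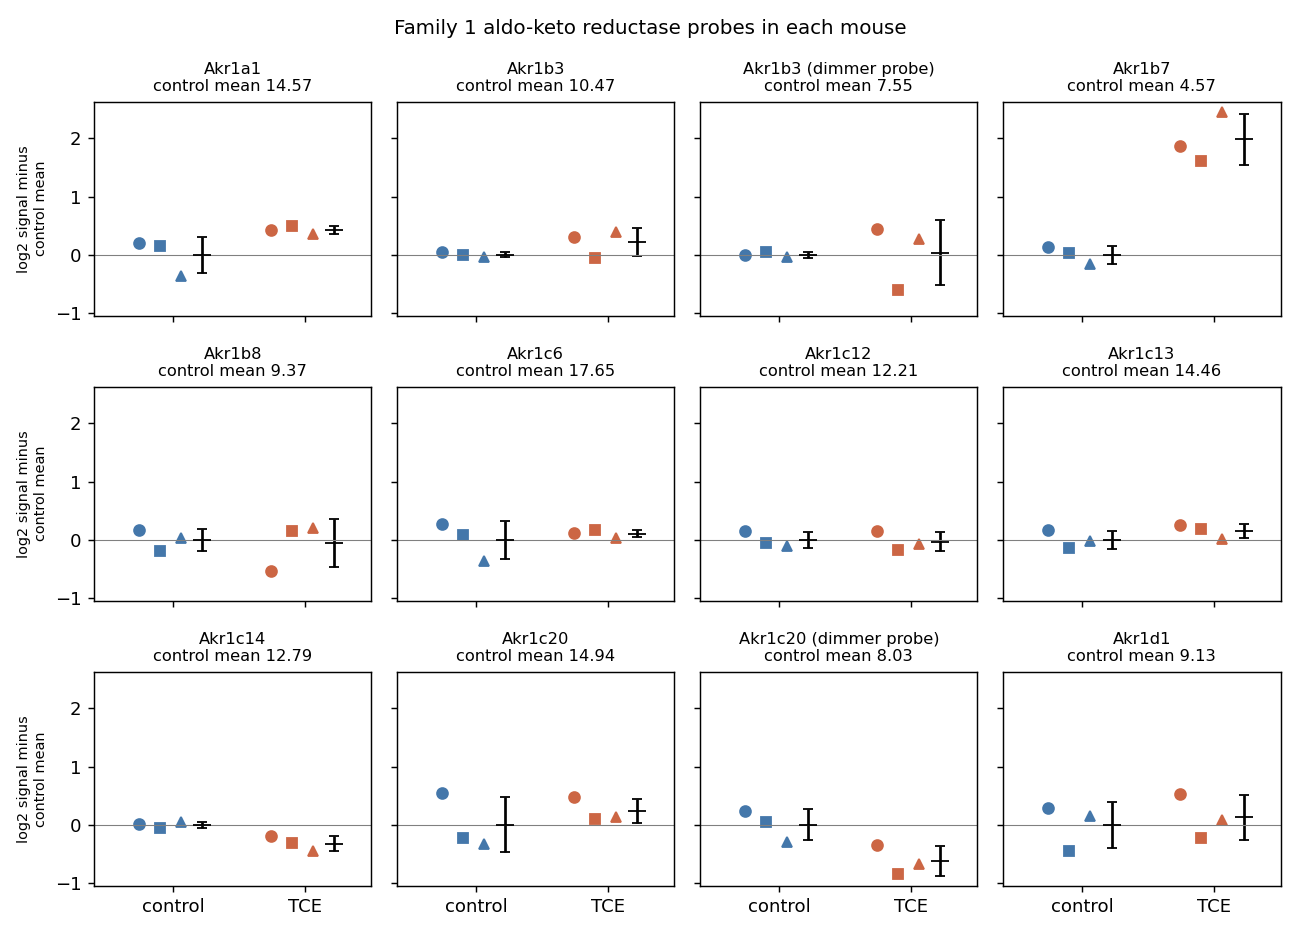
Log2 signal of each probe in each mouse, minus the probe's mean in control mice. Control is blue and TCE is orange. Circle, square and triangle are replicates 1, 2 and 3, which no label pairs across the groups. Black bars give the mean and SD of 3 mice. The Akr1b7 values of the 3 TCE mice lie well above those of the control mice, whereas the groups overlap or lie close together for the other probes.

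The call was close to its threshold. Over 18 other ways of processing and testing that could be applied to this probe the difference was above 0 in each, from 0.70 to 2.17. It was past the threshold in 8 of them, among these the methods' t-test without adjustment. The 18 are not all distinct. The slide as a block, the shared slide alone and leaving out control mouse 1 gave the same fit. The mean of a gene's detected probes repeats the reported difference, since this gene has a single probe. Leaving out control mouse 1, 2 or 3, or TCE mouse 1, raised the adjusted p to 0.0558, 0.0791, 0.0717 and 0.0643. Without control mouse 1 only the mice of the shared slide remain, and there the difference was 2.05. The smallest difference, 0.70 (adjusted p = 0.133), came with a background correction that adds an offset of 50 intensity units and so compresses dim signals. By the methods' t-test, the adjusted p was 0.0937. An exact permutation test (two-sided) on this gene gave p = 0.1, the smallest value that 3 mice against 3 allow.

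**Figure D2:**
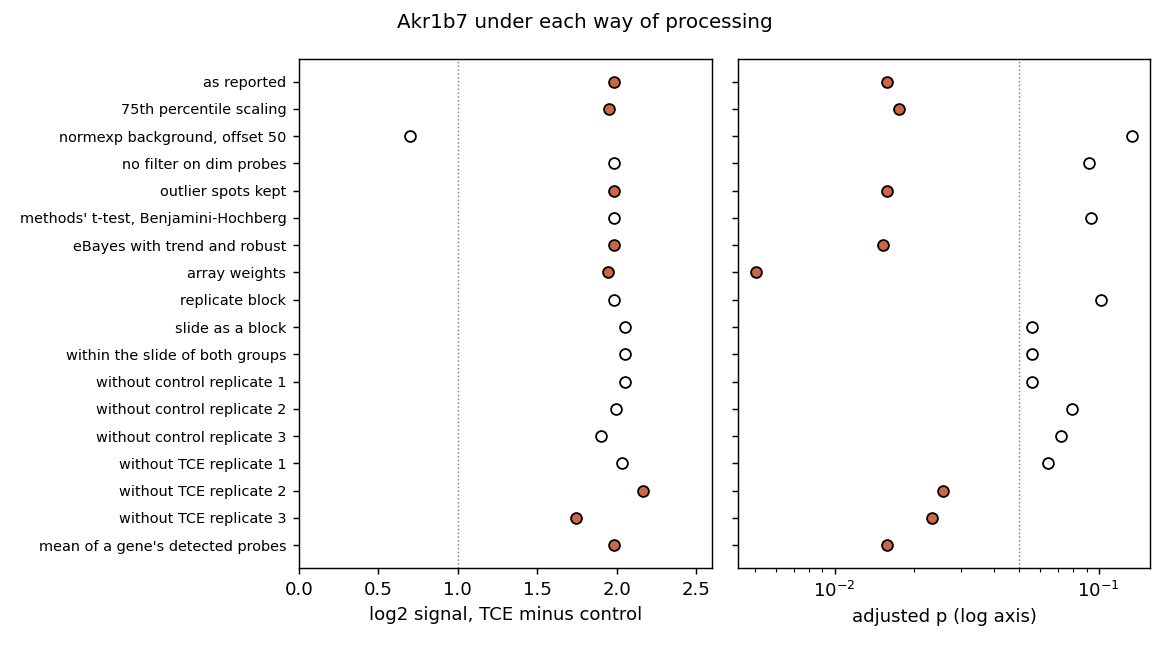
Fitted difference (left, log2 signal, TCE minus control) and adjusted p (right, log axis) of Akr1b7 under each way of processing. Filled points were past both limits, drawn as dotted lines at 1 and at 0.05. The difference was 1.74 to 2.17 in all but the offset background correction, at 0.70, while the adjusted p lay on either side of 0.05.

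Akr1b7 is highly expressed in the adrenal cortex and intestine, and markers of these tissues were read in the same arrays. Of 4 adrenal cortex markers 1, the steroid 21-hydroxylase Cyp21a1, was detected, with a difference of 0.58 (95% interval -0.50 to 1.65, adjusted p = 0.551), and 0 passed in limma, with or without adjustment. The summed linear signal of the 4 was 330 to 853 in control mice and 508 to 1015 in TCE mice, most of it from Cyp21a1. The signal of the defining genes Cyp11a1 and Cyp11b1 was well above background on 0 arrays. Of 4 intestinal epithelium markers 3 were detected, their summed signal was 25631 to 28849 in control mice and 32203 to 47892 in TCE mice, and on 0 arrays was the defining factor Cdx2 well above background. Most of this sum came from Fabp2, a fatty acid binding protein, which was at 14.59 to 14.76 in control mice and 14.85 to 15.43 in TCE mice, with no overlap and a difference of 0.54 (95% interval 0.11 to 0.97, adjusted p = 0.198). Lgals4, a galectin of the gut lining, rose by 1.57 on the log2 scale (adjusted p = 0.0296). Vil1, the microvillus protein villin, fell from 3 of 3 arrays well above background to 0 of 3, at least 1.44-fold lower (adjusted p = 0.0419). Both calls were lost in most fits that left out 1 mouse, with an adjusted p of up to 0.126 for Lgals4 (without control mouse 1, 2 or 3 or TCE mouse 1) and up to 0.133 for Vil1 (on leaving out any mouse other than control mouse 1). The part of these genes' cells in the Akr1b7 result was not tested. Markers of Kupffer cells, sinusoidal endothelium, stellate cells, bile duct, lymphocytes and adipose tissue were read too, and 20 were detected. Of these, 0 passed an adjusted p of 0.05 in limma or by the methods' t-test. In limma 2 had an unadjusted p under 0.05, both lower in TCE mice. The stellate cell marker Lrat differed by -1.35 (95% interval -1.99 to -0.71, limma adjusted p = 0.0675), with no overlap. The lymphocyte marker Cd3e differed by -0.63 (95% interval -1.26 to -0.0066, limma adjusted p = 0.275).

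Across the array, 1.03% of detected probes were higher in TCE mice past the threshold, an adjusted p up to 0.05 together with at least a 2-fold change, and 0.383% were lower. Without the fold limit these were 1.43% and 0.577%. Of the 10 members, each represented by its brightest detected probe, 1 was past the threshold as higher and 0 as lower, and the counts were the same without the fold limit. At an unadjusted p under 0.05, 3 of the 10 members and 4072 detected probes were counted, and by the methods' t-test 2 members at an unadjusted p of 0.05 and 0 after adjustment. The difference was above 0 for 7 members and below 0 for 3, with a median of 0.14 over the members against 0.02 over all detected probes. Groups did not overlap for 2 members that were higher in TCE mice, Akr1b7 and Akr1a1, and for 1 that was lower, Akr1c14, while on the whole array 15.5% of detected probes were separated in the higher and 10.2% in the lower direction.

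**Figure D3:**
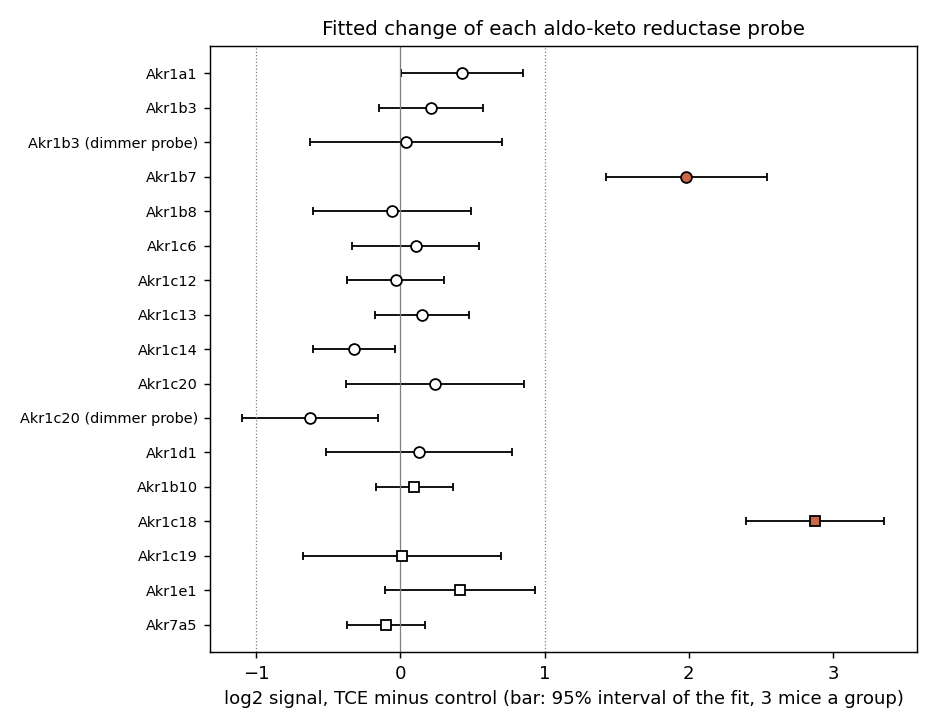
Fitted difference in log2 signal, TCE minus control, of the 12 member probes (circles) and of the other detected aldo-keto reductases (squares), with 95% intervals from limma over 3 mice a group. Filled symbols passed an adjusted p of 0.05. Dotted lines mark a 2-fold change. Akr1b7 at 1.98 and Akr1c18 at 2.88 are the filled symbols, and the other intervals lie inside the dotted lines except for the lower end of the dimmer Akr1c20 probe, at -1.09.

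Akr1b8 is a close relative of Akr1b7 and lies near it on chromosome 6 (probe at 34318338 to 34318397, mm9). It codes for an aldose-reductase-like enzyme that is induced by fibroblast growth factor in cultured cells. The log2 signal was 9.54, 9.17 and 9.39 in control mice and 8.84, 9.52 and 9.57 in TCE mice. TCE mouse 1 was below all control mice and the other 2 TCE mice were within or just above the control range. The difference was -0.06 (SE 0.23, 95% interval -0.61 to 0.49, adjusted p = 0.922). This probe was printed in 10 spots per array, and the SD over the spots of an array was 0.04 to 0.09, well under the SD of 0.41 between the TCE mice.

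The regulatory stretches of the Akr1b7 and Akr1b8 genes are shown because 1 of these related genes passed the test and the other did not, although the difference between them was not tested. Each line gives the 250 bases before the transcription start from RefSeq, on the plus strand of build GRCm38.p6, which is not the build of the probe positions. They are chr6:34412112-34412361 for Akr1b7 and chr6:34353896-34354145 for Akr1b8. Capitals mark matches on either strand to AGGTCA, the hexamer bound by many nuclear receptors, to TATAAA or to TGACNNNGC, the core of the antioxidant response element.
Akr1b7: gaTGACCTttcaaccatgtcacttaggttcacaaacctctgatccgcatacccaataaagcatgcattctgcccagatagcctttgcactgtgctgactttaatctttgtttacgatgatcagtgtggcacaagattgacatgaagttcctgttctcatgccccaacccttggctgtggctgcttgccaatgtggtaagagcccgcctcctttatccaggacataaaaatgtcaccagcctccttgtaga
Akr1b8: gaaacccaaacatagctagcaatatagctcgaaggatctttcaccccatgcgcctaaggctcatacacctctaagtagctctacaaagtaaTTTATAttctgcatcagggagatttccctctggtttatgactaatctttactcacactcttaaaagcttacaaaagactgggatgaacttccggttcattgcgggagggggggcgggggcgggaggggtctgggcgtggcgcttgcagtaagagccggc
Akr1b7 held AGGTCA on the minus strand, 248 to 243 bases before the start, and Akr1b8 held TATAAA on the minus strand, 159 to 154 bases before it. Of 27025 promoters with a gene symbol, 13.8% held AGGTCA and 10.1% TGACNNNGC in these 250 bases, and 3504 held TATAAA. Among the 8 members with a promoter in the table, AGGTCA was found in 2, Akr1b7 and Akr1d1, and TGACNNNGC in 0. For TTCNNNGAA, the core bound by STAT factors, 0 of the 8 members and 7.18% of all promoters held a match. The local alignment of the Akr1b7 and Akr1b8 stretches matched 100 bases over 154. A match describes letters in the window, not a bound site.

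Akr1b3 is aldose reductase, which turns glucose into sorbitol as the first step of the polyol pathway. Its brighter probe (chromosome 6, 34253930 to 34253982, mm9) gave 10.52, 10.47 and 10.43 in control mice and 10.79, 10.41 and 10.86 in TCE mice. TCE mouse 2 lay below the control mice and the other 2 above them, with a difference of 0.21 (95% interval -0.15 to 0.57, adjusted p = 0.508). At the dimmer probe (34260573 to 34260632) the values were 7.54, 7.60 and 7.50 in control mice and 7.99, 6.95 and 7.82 in TCE mice, the same mouse again being the lowest. The difference there was 0.04 (95% interval -0.62 to 0.70, adjusted p = 0.960). Both probes placed the TCE mice farther apart than the control mice, with an SD of 0.24 against 0.04 for the brighter and 0.56 against 0.05 for the dimmer probe.

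Akr1a1 is aldehyde reductase, a broad enzyme that also converts glucuronate to gulonate on the route to vitamin C. Its probe maps to chromosome 4 from 116310395 to 116310581 (mm9), a span longer than the probe. The log2 signal was 14.77, 14.72 and 14.21 in control mice and 15.00, 15.06 and 14.93 in TCE mice. All 3 TCE mice were above the control mice, of which replicate 3 was the lowest. The difference of 0.43 had a 95% interval of 0.005 to 0.85 and did not pass the adjusted threshold (adjusted p = 0.274). Across the other ways of processing it ranged from 0.25 to 0.53, with an adjusted p of at least 0.206.

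The Akr1c genes encode hydroxysteroid dehydrogenases and xenobiotic reductases. Their member probes stand on chromosome 13 (mm9) in the order Akr1c14, Akr1c13, Akr1c12, Akr1c6 and Akr1c20, from 4089325 to 4506887. At the brightest probe of each gene, 0 of the 5 passed an adjusted p of 0.05 in limma. Of the 5, 1, Akr1c14, had an unadjusted p under 0.05 there, as did 4072 of the 22719 detected probes. The dimmer Akr1c20 probe, outside this count, had an unadjusted p of 0.0168 in limma (adjusted p = 0.175). After adjustment the methods' t-test passed 0 as well.

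Akr1c14, a 3alpha-hydroxysteroid dehydrogenase that inactivates dihydrotestosterone and related steroids, had the lowest difference of the members at their brightest probes. The log2 signal at 4089325 to 4089383 was 12.80, 12.74 and 12.84 in control mice and 12.60, 12.47 and 12.34 in TCE mice. The TCE mice were all below the control mice, which had an SD of 0.05. The difference was -0.32 (SE 0.12, 95% interval -0.61 to -0.04, adjusted p = 0.232). It stayed between -0.39 and -0.25 across the other ways of processing, with an adjusted p of 0.151 or more.

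Akr1c6 is the mouse type 5 17beta-hydroxysteroid dehydrogenase, which makes testosterone from androstenedione. The log2 signal was 17.93, 17.74 and 17.29 in control mice and 17.77, 17.82 and 17.69 in TCE mice. The TCE values lay inside the control range, and the difference was 0.11 (95% interval -0.33 to 0.55, adjusted p = 0.803).

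Akr1c12 and Akr1c13 are close copies that reduce steroids and other carbonyl compounds. Akr1c12 gave 12.36, 12.16 and 12.11 in control mice and 12.36, 12.03 and 12.14 in TCE mice, nearly the same values in both groups, with a difference of -0.03 (95% interval -0.37 to 0.30, adjusted p = 0.934). For Akr1c13 the values were 14.62, 14.32 and 14.43 in control mice and 14.71, 14.65 and 14.47 in TCE mice. The groups overlapped, and the difference was 0.15 (95% interval -0.17 to 0.48, adjusted p = 0.603). The stretches before their starts show how alike these copies are, with capitals at the bases that do not match in the alignment of the pair. In GRCm38.p6, they lie at chr13:4279400-4279649 on the minus strand for Akr1c12 and at chr13:4190937-4191186 on the plus strand for Akr1c13.
Akr1c12: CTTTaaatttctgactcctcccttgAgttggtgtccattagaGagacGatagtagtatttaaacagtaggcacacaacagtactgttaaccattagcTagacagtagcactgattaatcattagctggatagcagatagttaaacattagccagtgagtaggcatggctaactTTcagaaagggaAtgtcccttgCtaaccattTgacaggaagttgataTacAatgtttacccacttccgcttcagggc
Akr1c13: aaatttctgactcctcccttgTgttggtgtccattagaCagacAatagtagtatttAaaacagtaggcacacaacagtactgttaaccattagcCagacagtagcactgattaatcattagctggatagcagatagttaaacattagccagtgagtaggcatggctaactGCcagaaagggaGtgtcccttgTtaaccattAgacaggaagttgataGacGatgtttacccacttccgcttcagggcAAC
Of the 250 bases, 235 were identical and 15 were not. The 2 genes were thus alike before the start. Both had intervals within a 2-fold change, as did, at the brightest probe, every other member except Akr1b7.

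Akr1c20, a hydroxysteroid dehydrogenase, was the member whose probes had differences of opposite sign. At the brighter probe (4486408 to 4486467), the log2 signal was 15.48, 14.72 and 14.62 in control mice and 15.42, 15.04 and 15.08 in TCE mice. Control mouse 1 was the highest of all and the other 2 control mice were the lowest, with a difference of 0.24 (SE 0.26, 95% interval -0.38 to 0.86, adjusted p = 0.671). At the dimmer probe (4506828 to 4506887) the values were 8.26, 8.08 and 7.74 in control mice and 7.68, 7.18 and 7.35 in TCE mice, so that all TCE mice were below all control mice. The difference there was -0.62 (SE 0.19, 95% interval -1.09 to -0.16, adjusted p = 0.175). The probes are annotated to different transcript records, neither of which was matched in the RefSeq table used here, whereas the other 10 member probes were. The average of both probes gave -0.19 (adjusted p = 0.686), so the sign for this gene depends on the probe.

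Akr1d1 is the steroid 5beta-reductase, which reduces the ring of bile acid precursors and of steroid hormones. Its probe on chromosome 6 (37518113 to 37518172, mm9) gave 9.42, 8.69 and 9.29 in control mice and 9.67, 8.90 and 9.22 in TCE mice. Replicate 2 was the lowest in both groups, which overlapped. The difference was 0.13 (SE 0.27, 95% interval -0.52 to 0.78, adjusted p = 0.839), an interval that reaches a 1.71-fold rise.

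Outside the 10 genes, 10 further aldo-keto reductases were on the array and 5 of them were detected, and 1 of the 5 rose. Akr1c18, the 20alpha-hydroxysteroid dehydrogenase that inactivates progesterone, also belongs to family 1. Its log2 signal was 5.47, 5.68 and 5.47 in control mice and 8.57, 8.01 and 8.67 in TCE mice, well above background on all 6 arrays, with no overlap. The difference was 2.88 (SE 0.20, 95% interval 2.40 to 3.36, limma adjusted p = 0.00256), a 7.34-fold rise. The adjusted p was 0.0201 or less whichever mouse was left out. The other 4, Akr1b10, Akr1c19, Akr1e1 and Akr7a5, did not pass, with differences from -0.10 to 0.42.

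The enzymes next to these reductases in metabolism were read as lists. Of 94 genes in 5 lists 78 were detected, 5 rose and 2 fell at an adjusted p up to 0.05, and their median difference was -0.01, against 0.02 over all detected probes. In the fits that left out 1 mouse the number that passed was 3 to 6, as against 7 with all mice, and it was 3 without control mouse 2 or 3. It was 4 without control mouse 1 or without TCE mouse 1.

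The 12 genes of the polyol and glucuronate route, which share substrates with Akr1b3 and Akr1a1, were all detected, with a median of 0.08. In limma or by the methods' t-test 0 passed an adjusted p of 0.05. In limma 3 genes had an unadjusted p under 0.05, as did 4072 of the 22719 detected probes. Sord, which converts sorbitol to fructose, differed by -0.08 (95% interval -0.59 to 0.43). Gulo, the last step of vitamin C synthesis, differed by -0.45 (95% interval -0.76 to -0.14, adjusted p = 0.145). Besides Gulo, the genes with an unadjusted p under 0.05 were Khk and Dcxr, which went opposite ways. Khk differed by 0.39 (95% interval 0.07 to 0.70, limma adjusted p = 0.203) and Dcxr by -0.33 (95% interval -0.63 to -0.02, limma adjusted p = 0.252).

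Of 36 other carbonyl and alcohol oxidoreductases 31 were detected, 3 rose and 0 fell, with a median of 0.06. Aldh3a2, the fatty aldehyde dehydrogenase, rose from 9.90 ± 0.09 to 11.77 ± 0.40 (SD, n = 3, limma adjusted p = 0.0145). Rdh16, a retinol dehydrogenase, rose by 1.75 (SE 0.14, limma adjusted p = 0.00439). Dhrs4, a peroxisomal carbonyl reductase, rose by 1.09 (adjusted p = 0.0287). The call for Aldh3a2 was lost without control mouse 1, 2 or 3 or TCE mouse 1 (adjusted p up to 0.0772), and that for Dhrs4 on leaving out any mouse other than control mouse 1 (up to 0.109), while Rdh16 passed in each such fit.

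The steroid-converting enzymes, 20 detected of 26, had a median of -0.30, with 1 gene higher and 2 lower. Hsd17b11, a dehydrogenase of lipid droplets, rose by 1.46 (adjusted p = 0.00625) and passed whichever mouse was left out. Hsd3b5, a male-specific hepatic 3-ketosteroid reductase, fell by 1.83 on the log2 scale (adjusted p = 0.0413). Cyp7b1, the oxysterol 7alpha-hydroxylase, fell by 1.43 (adjusted p = 0.0440). These falls were less firm, since Hsd3b5 lost its call without control mouse 1, 2 or 3 or TCE mouse 2 (adjusted p up to 0.148) and Cyp7b1 on leaving out any of the 6 mice (0.0768 to 0.155).

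Cyp7b1 was also the only gene to pass among the 13 genes of bile acid synthesis around the 5beta-reduction step of Akr1d1, all of which were detected, with a median of -0.30. Cyp7a1, the rate-limiting enzyme of bile acid synthesis, had the largest difference, -2.50 (95% interval -4.02 to -0.98), but its values spread by an SD of 0.98 and 0.96 within the groups and it did not pass (adjusted p = 0.118).

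**Figure D4:**
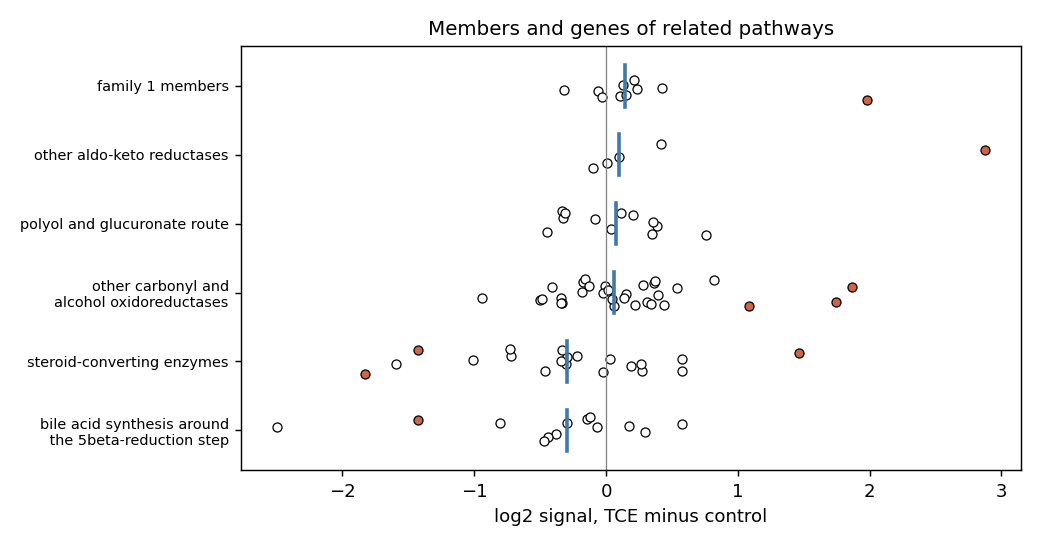
Difference in log2 signal, TCE minus control, of the 10 members (brightest probe each) and of the detected genes in 5 related lists. Each point is a gene, filled where its adjusted p was 0.05 or less. Blue lines are medians. Akr1b7 is the filled point among the members, the steroid and bile acid lists have medians of -0.30, and their filled points on the left are Cyp7b1, which is in both, and Hsd3b5.

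The genes most like Akr1b7 over the 6 mice were sought among 11365 genes well above background on all arrays, by the root mean square difference of log2 profiles centred on the control mean. They were Hebp2, a heme-binding protein (0.184), Defb1, a beta-defensin (0.211), and Tmem43, a nuclear membrane protein (0.214). Among treated animals, Hebp2 read 7.25, 6.98 and 7.81 and Defb1 7.08, 6.73 and 7.33, so that replicate 2 was the lowest and replicate 3 the highest for both, as for Akr1b7. Tmem43 read 10.99, 10.34 and 10.88, with replicate 2 lowest too. The genes were picked for likeness to these same Akr1b7 values. A shared order of the TCE mice thus follows from the choice and is not a further result. The control values of Akr1b7 on which its profile was centred were not well above background.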

How the data were processed

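Liver RNA of 3 control and 3 TCE mice was labeled with a single dye, 1 array per mouse. The authors extracted the scans with Feature Extraction 10.7.1.1 and deposited spot intensities, background-subtracted and detrended within the array, with flags for each spot, on mm9 annotation. The authors also deposited group means of quantile-normalized log2 values, and 6 flag columns beside them were not used.

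Here log2 was taken of the deposited intensities, outlier-flagged spots were dropped (1 of the member spots), replicate spots were averaged per probe, and quantile normalization followed, as in the study's methods. Detected probes were compared with limma 3.58.1 (R 4.3.3, with statmod 1.5.0), using lmFit and eBayes with group alone in the model and two-sided p, adjusted by Benjamini-Hochberg over 22719 probes. The study's methods name a t-test with P of 0.05 and fold of 2, which was run as an alternative. The procedure was run on simulated data with independent noise and no slide effect, which does not give its error rate on these arrays. For a gene with several detected probes the brightest was used. The number of arrays limits the precision, and p-values rest on the spread between 3 animals a group.

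The members, lists and tests were chosen with earlier results of these data known. Named are all members, up to 4 genes per list with the largest changes at an adjusted p up to 0.05, and the 3 genes most like each member past the threshold. Sord, Gulo, Khk, Dcxr, Cyp7a1, Fabp2, Cyp21a1, Lrat, Cd3e and Cfd were named after their values were seen. No label pairs the mice by replicate number, so group alone was modelled. Deviations of same-numbered mice correlated at 0.09, 0.0066 and -0.09. With so few mice these values cannot show whether the mice were paired. RefSeq promoters were found for 8 members. Other doses, qPCR and DNA methylation were not analysed here.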

Additional observations from a re-analysis of the deposited data

How the results depend on the processing

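The alternatives were another scaling, background correction, filter, spot rule, test, variance model, array weights, blocks and probe rule, and each mouse left out. Members past the threshold, and at an adjusted p of 0.05 or less, numbered 1, and Akr1b7 was that member. Both counts were 0 with the offset of 50, with no filter, with probes well above background on all 6 arrays (which leaves Akr1b7 out), with the methods' t-test after adjustment, with the replicate block, and with the slide as a block or within the slide of both groups, and 0 to 1 without each mouse. Members at an unadjusted p of 0.05 by the methods' t-test numbered 2, or 1 with a 2-fold change as well. All detected probes past the threshold, 321, numbered 96 with no filter, 594 and 35 by the t-test without and with adjustment, 561 with array weights, 63 with the replicate block, 177 with the slide as a block and within the slide, and 126 to 272 without each mouse. Related genes that passed, 7, numbered 3, 25, 0, 11, 1, 4 and 4 in the same order, and 3 to 6 without each mouse. With the replicate block the limma adjusted p of Akr1b7 was 0.102. No label says that the replicate numbers pair the mice. Some settings also differ in the probes fitted or in the number of mice, and the cause of these moves was not tested.

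Of the 12 member probes, 6 had a difference whose sign turned under some alternative, none of them called. With 75th percentile scaling Akr1c6 was -0.016 and Akr1c12 was 0.0054, and with array weights Akr1c12 was 0.075. With the slide as a block, within the slide and without control mouse 1, Akr1b8 was 0.027 and Akr1c12 was 0.045. The mean of both Akr1c20 probes was -0.19. Without each mouse in turn, Akr1b8 ranged from -0.19 to 0.18, Akr1c6 from -0.075 to 0.25, Akr1c12 from -0.12 to 0.045, Akr1d1 from -0.091 to 0.31 and the dimmer Akr1b3 probe from -0.16 to 0.36. Group means in the authors' table lay within 1 SD of those used here for each member probe. Dim signal limits Akr1b7 alone among the members.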
